A study of Mus musculus with 6 samples.

Results

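The 10 genes described here encode 9 apolipoproteins (Apoa1, Apoa2, Apoa4, Apoa5, Apob, Apoc1, Apoc3, Apoe and Apom) and Mttp, the microsomal triglyceride transfer protein. They were taken by gene symbol from a table of 17975 genes, and all 10 were among the 13805 genes with enough counts to be tested. RNA was sequenced from whole liver of 3 WT mice and of 3 mice with a NEK7 hepatocyte knock-out (Hom mice), 1 liver per mouse. Hom mice were NEK7 fl/fl-Alb-Cre+ on a C57BL/6 background, so that the albumin promoter drove Cre and the floxed Nek7 alleles were removed in hepatocytes, while the other cells of the liver kept the gene. The comparison asks how hepatocyte loss of NEK7, a kinase of the NIMA-related family, changed the liver transcriptome. Whether the WT mice carried floxed alleles or Cre, and the age and sex of the mice behind these 6 livers, are not given in the sources used here.

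Apolipoproteins are the protein part of lipoprotein particles, and hepatocytes secrete most of them. ApoB is built into the very-low-density lipoprotein particle while it is still being made, and MTTP loads that nascent particle with lipid in the endoplasmic reticulum. ApoA-I and apoA-II are the main proteins of high-density lipoprotein, and apoC and apoE proteins move between particles, where they set lipolysis and uptake by receptors.

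Read totals were nearly equal, at 19349356 to 19476892 per WT liver and 19392525 to 19730154 per Hom liver, but TMM factors, which correct for library composition, ran from 0.81 to 0.92 in WT livers and from 1.09 to 1.23 in Hom livers. Nek7 itself had 1127, 1077 and 1036 reads in the WT livers and 310, 439 and 387 in the Hom livers (log2 fold change −1.99, SE 0.10). Hom replicate 1 stood apart: it held 0 reads of Ddx3y and Kdm5d, genes of the Y chromosome, against at least 243 of each in every other liver, and Eif2s3y had 4 reads against at least 582. Uty, also Y-linked, was not near 0 there, with 149 reads against 464 to 725 in the other livers. Some of the values that rest on this liver are given below with and without it. CPM denotes reads scaled to a common library total after TMM correction, and differences are log2 fold changes of Hom over WT livers. A gene was called when its p from edgeR's quasi-likelihood test, adjusted over all 13805 genes by the Benjamini-Hochberg method, was under 0.05.

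Of the 10 genes, 8 were lower in Hom livers (Apoa1, Apoa2, Apoa5, Apoc1, Apoc3, Apoe, Apom and Mttp), 1 was higher (Apoa4) and 1 did not pass the test (Apob), with no minimum fold change and with TMM scaling. Among all tested genes 20.1% were called lower and 21.5% higher. With TMM scaling the median difference over the 10 genes was −0.73, against −0.0018 over all tested genes. The CPM values of WT and Hom livers did not overlap for any of the 10 genes, and the same held for 55.6% of all tested genes. The sizes depended on the scaling, as detailed after the single genes: with library size alone 2 of the 10 were called lower (Apoa2 and Apoc1), Apoa4 was still called higher, and Mttp and Apob turned to positive values that did not pass the test. Over all 13805 tested genes, library size alone called 642 lower and 6574 higher.

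**Figure D1:**
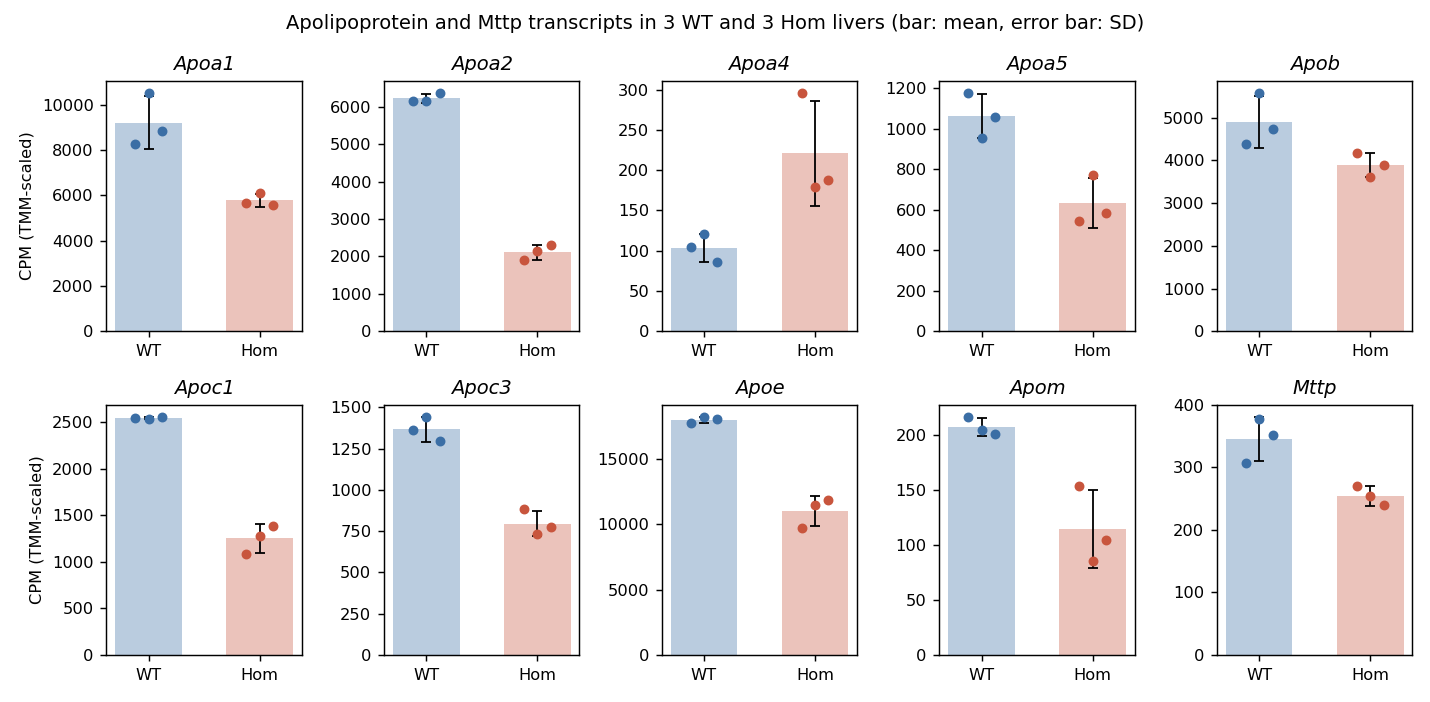
TMM-scaled CPM of the 10 genes in each liver (points), with the mean (bar) and SD (error bar) of 3 WT and 3 Hom livers. Apoa2 fell from a mean of 6233 to 2111 CPM, Apoa4 rose from 104 to 221 CPM with Hom replicate 1 the highest liver, and in no panel do the points of the groups overlap.

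Of the 10 genes, 6 lie in pairs or clusters. Apoa1 (chr9:46228580-46230466, plus strand, GRCm38), Apoc3 (chr9:46232933-46235636, minus strand), Apoa4 (chr9:46240696-46243459, plus strand) and Apoa5 (chr9:46268633-46271919, plus strand) occupy 43.3 kb of chromosome 9. Apoe (chr7:19696109-19699188) and Apoc1 (chr7:19689481-19692660) lie 9.7 kb from end to end on the minus strand of chromosome 7, next to Apoc4 and Apoc2. The remaining 4 are single genes: Apoa2 (chr1:171225054-171226379, plus strand), Apob (chr12:7977648-8016835, plus strand), Apom (chr17:35128997-35132050, minus strand) and Mttp (chr3:138089854-138144968, minus strand).

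RefSeq promoter windows (GRCm38.p6) were matched for 8 of the 10 genes, all but Apoc1 and Apoc3. The windows of 4 are shown because the results turn on these genes: Apoa1 is the reference for the ratios below, Apoa2 fell the most, Apoa4 was the gene that rose, and Apob was the gene that did not pass the test. Only bases before both the RefSeq and the GENCODE start are printed, 5′ to 3′ on the plus strand, and capitals mark matches to the searched motifs.
Apoa1, chr9:46228380-46228579: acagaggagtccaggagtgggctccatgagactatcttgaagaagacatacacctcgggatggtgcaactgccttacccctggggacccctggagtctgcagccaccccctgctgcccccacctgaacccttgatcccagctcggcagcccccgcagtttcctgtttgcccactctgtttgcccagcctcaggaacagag
Apoa2, chr1:171224804-171225053: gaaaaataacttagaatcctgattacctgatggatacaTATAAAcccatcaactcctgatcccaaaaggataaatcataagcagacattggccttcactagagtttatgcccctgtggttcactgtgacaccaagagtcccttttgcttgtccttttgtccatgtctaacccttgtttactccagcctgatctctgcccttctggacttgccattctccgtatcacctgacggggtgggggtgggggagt
Apoa4, chr9:46240594-46240695: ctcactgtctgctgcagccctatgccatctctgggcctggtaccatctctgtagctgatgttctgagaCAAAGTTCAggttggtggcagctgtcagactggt
Apob, chr12:7977427-7977647: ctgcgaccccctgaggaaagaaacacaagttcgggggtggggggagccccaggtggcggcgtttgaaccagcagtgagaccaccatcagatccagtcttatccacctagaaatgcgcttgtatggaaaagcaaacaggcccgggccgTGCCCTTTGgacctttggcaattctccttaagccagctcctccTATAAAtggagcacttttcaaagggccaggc

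The motifs were searched on both strands in the 250 bases before each RefSeq start. They were the core of the element bound by HNF4 (CAAAGNNCA, in 5.49% of 32851 windows of the genome), the cyclic AMP response core (TGACGT, 6.47%), the TATA box (TATAAA, 12.4%) and the C/EBP core (TTGCNCAA, 2.61%). The HNF4 core was found in 2 of the 8 genes with a window: as CAAAGTTCA, 182 bases before the RefSeq start of Apoa4, and as its reverse complement TGCCCTTTG, 103 bases before that of Apob. The TATA box was found in 4 genes, 60 bases before the start of Apob, 212 before that of Apoa2 and 31 and 56 before the RefSeq starts of Apoa5. Before an inner start of Apoe it was found at 96 bases and, as its reverse complement TTTATA, at 100 bases. None of the 4 motifs was in the Apoa1 window. The cyclic AMP response core was found in 1 gene, Mttp (as ACGTCA, 29 bases before a start), and the C/EBP core in 0 genes. No match of one motif overlapped a match of another motif.

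Among the genes of high-density lipoprotein, Apoa2 showed the largest fall of the 10. Its rounded read counts were 110268, 96129 and 103774 in the WT livers and 40602, 51784 and 53454 in the Hom livers. After scaling these were 6158, 6166 and 6376 CPM in WT and 1895, 2135 and 2304 CPM in Hom livers. The coefficient of variation of the WT livers was 1.99%, and every Hom liver was far under every WT liver. The log2 fold change was −1.56 (SE 0.16, adjusted p = 8.09e-04, edgeR), which left 33.9% of the WT mean. Apoa2 passed the test in each of the 13 alternative settings, with log2 fold changes from −1.63 to −1.10. Apoa2 and Mttp were the genes among the 10 whose estimated counts were not whole (within 0.005) in any liver, so that part of their counts depends on how the estimation divided reads.

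Apoa1, the structural protein of high-density lipoprotein, had 8274, 10529 and 8858 CPM in WT livers and 5656, 6096 and 5591 CPM in Hom livers. Here the WT livers were the more spread group, and the highest Hom liver was 2178 CPM under the lowest WT liver. The log2 fold change was −0.67 (SE 0.18, adjusted p = 0.0225, edgeR), or 62.7% of the WT mean. This call was lost when WT replicate 2, WT replicate 3, Hom replicate 2 or Hom replicate 3 was left out, with log2 fold changes of −0.75 to −0.57 over the 6 omissions.

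Apom, which binds sphingosine-1-phosphate on high-density lipoprotein, stood at 217, 205 and 201 CPM in WT livers and at 154, 85.5 and 105 CPM in Hom livers. Hom replicate 1 was the least reduced, and the coefficient of variation was 30.8% in Hom livers against 4.00% in WT livers. The log2 fold change was −0.86 (SE 0.21, adjusted p = 0.0163, edgeR). Without Hom replicate 1 it was −1.13 (adjusted p = 0.00193), and without Hom replicate 3 it was −0.79 and no longer passed the test (adjusted p = 0.0605).

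The 4 genes of the chromosome 9 cluster did not move together. Apoa4, an apolipoprotein made by intestine and liver, had 1871, 1876 and 1401 reads in WT livers and 6341, 4342 and 4350 reads in Hom livers. These were 104, 120.3 and 86.1 CPM in WT and 296, 179 and 188 CPM in Hom livers. Every Hom liver lay above every WT liver, and Hom replicate 1 stood well above the other Hom livers. The log2 fold change was 1.09 (SE 0.22, adjusted p = 0.00884, edgeR), a rise to 2.13 times the WT mean. Without Hom replicate 1 the change was 0.82 (adjusted p = 0.00876), and Apoa4 was called higher in each of the 13 alternative settings, with log2 fold changes from 0.82 to 1.53.

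Apoc3 and Apoa5, on either side of Apoa4, were both lower. Apoc3, an inhibitor of lipoprotein lipase and of remnant uptake, had 1360, 1443 and 1295 CPM in WT livers and 882, 730.1 and 776 CPM in Hom livers. Its highest Hom liver was 413 CPM under its lowest WT liver, and the log2 fold change was −0.78 (SE 0.13, adjusted p = 0.00483, edgeR). Apoa5, which has the opposite effect on plasma triglyceride and promotes lipolysis, had 1178, 957 and 1057 CPM in WT and 544, 773 and 586 CPM in Hom livers. Hom replicate 2 was the closest to the WT range, and the log2 fold change was −0.75 (SE 0.17, adjusted p = 0.0145, edgeR). Apoc3 remained called in all 6 omissions of a liver, and Apoa5 in 5 of them, all but that of Hom replicate 3. Within each liver, the log2 ratio of Apoc3 to Apoa5 reads averaged 0.36 ± 0.20 in WT and 0.34 ± 0.39 in Hom livers (SD, n = 3), whereas that of Apoa4 to Apoc3 moved from −3.73 ± 0.17 to −1.88 ± 0.27.

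Of the 10 neighbouring genes in the list for both clusters, 4 were lower and 2 were higher. On chromosome 9, Zpr1, whose start lies 44.5 kb from that of Apoa1, had a log2 fold change of −0.60 (adjusted p = 0.00457, edgeR). On chromosome 7, Nectin2 and Bcl3, 51.3 and 123.6 kb from the Apoe start, were higher by 0.75 (adjusted p = 0.00323) and 0.79 (adjusted p = 0.00411, edgeR). With library size alone 1 neighbour was lower and 4 were higher, and with libraries scaled to 20 hepatocyte transcripts 0 were lower and 2 were higher. Zpr1 passed in neither (−0.14, adjusted p = 0.455, and −0.25, adjusted p = 0.382), while Nectin2 and Bcl3 passed in both.

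In the chromosome 7 cluster, Apoe, the ligand through which remnant particles are taken up, was the most abundant of the 10 genes. It had 17703, 18178 and 18045 CPM in WT livers and 9742, 11442 and 11834 CPM in Hom livers. The WT values were close together, and Hom replicate 1 was the lowest liver. The log2 fold change was −0.71 (SE 0.18, adjusted p = 0.0214, edgeR), a fall to 61.2% of the WT mean. Apoe kept its call in 1 of the 6 omissions of a liver, that of Hom replicate 1, and its log2 fold change stayed between −0.76 and −0.63 in all 6.

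Apoc1, a small exchangeable apolipoprotein, had a larger fitted fall than its neighbour Apoe. Its WT livers had 2546, 2537 and 2559 CPM and its Hom livers 1087, 1277 and 1388 CPM. The 3 WT values differed by less than the gap between any of the Hom livers, and the log2 fold change was −1.03 (SE 0.15, adjusted p = 0.00259, edgeR). The log2 ratio of Apoc1 to Apoe reads within a liver was −2.80, −2.84 and −2.82 in WT and −3.16, −3.16 and −3.09 in Hom livers, with no overlap (difference −0.32, p = 0.1 in an exact permutation test of both sides, which cannot go lower with 3 livers a group). This ratio does not depend on the scaling between libraries. Further along the cluster, Apoc4 had a log2 fold change of −0.91 (SE 0.10, adjusted p = 0.00102, edgeR). Apoc2, the activator of lipoprotein lipase, did not pass the test (0.077, SE 0.26, adjusted p = 0.829), with 89.5, 115 and 65.7 CPM in WT and 127, 79.2 and 79.4 CPM in Hom livers. Without Hom replicate 1 its value was −0.18.

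Apob, the structural protein of very-low-density lipoprotein, had 78463, 86998 and 77100 reads in the WT livers and 89632, 87359 and 90263 reads in the Hom livers. Before scaling, each Hom liver thus held more Apob reads than any WT liver. After TMM scaling the order turned, with 4382, 5580.1 and 4737 CPM in WT and 4183, 3601 and 3891 CPM in Hom livers. The gap between the lowest WT and the highest Hom liver was 199 CPM, and the WT SD was 615 CPM. The log2 fold change was −0.33 (SE 0.17, 95% confidence interval −0.74 to 0.072, adjusted p = 0.159, edgeR). DESeq2 gave the same size (−0.33) with an adjusted p of 0.0244, the one setting of 13 in which Apob passed.

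Mttp reads numbered 5494, 5882 and 5738 in WT and 5800, 6159 and 5551 in Hom livers, an overlap that TMM scaling removed. The CPM values were 307, 377 and 353 in WT and 271, 254 and 239 in Hom livers. Mttp was lower by a log2 fold change of −0.44 (SE 0.11, adjusted p = 0.0213, edgeR), but with library size alone it stood at 0.019 (adjusted p = 0.886), and its call was also lost when WT replicate 2, WT replicate 3, Hom replicate 2 or Hom replicate 3 was left out. The log2 ratio of Mttp to Apob within a liver was −3.82 ± 0.070 in WT and −3.93 ± 0.10 in Hom livers (SD, n = 3), and the groups overlapped (exact two-sided permutation test, p = 0.3).

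The choice of scaling set how many of the 10 genes were called lower. With library size alone the median of all tested genes moved to 0.45, and with libraries scaled to 20 transcripts of hepatocytes it moved to 0.33. With either of these, 2 of the 10 genes were called lower, Apoa2 and Apoc1 with library size alone and Apoa2 and Apom with the hepatocyte transcripts, and Apoa4 was called higher. Over all 13805 tested genes, 642 were lower and 6574 higher with library size alone. The hepatocyte transcripts gave 547 lower and 3819 higher. Apoa2 stood at −1.10 and −1.22, and Apoa4 at 1.53 and 1.38, in these settings. Relative to the median of all tested genes, 9 of the 10 genes were on the lower side in the main setting and in each of the 13 alternatives. A change of scaling moves all genes by nearly the same amount, and taking off the median removes that shift. Apoa1 less the median, for example, was −0.67, −0.66 and −0.67 with TMM, library size alone and the hepatocyte transcripts. This count therefore cannot show whether the falls hold under another scaling. With upper-quartile factors, no low-count filter, or at least 10 counts in every liver, 8 genes were lower and 1 was higher, as in the main setting.

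**Figure D2:**
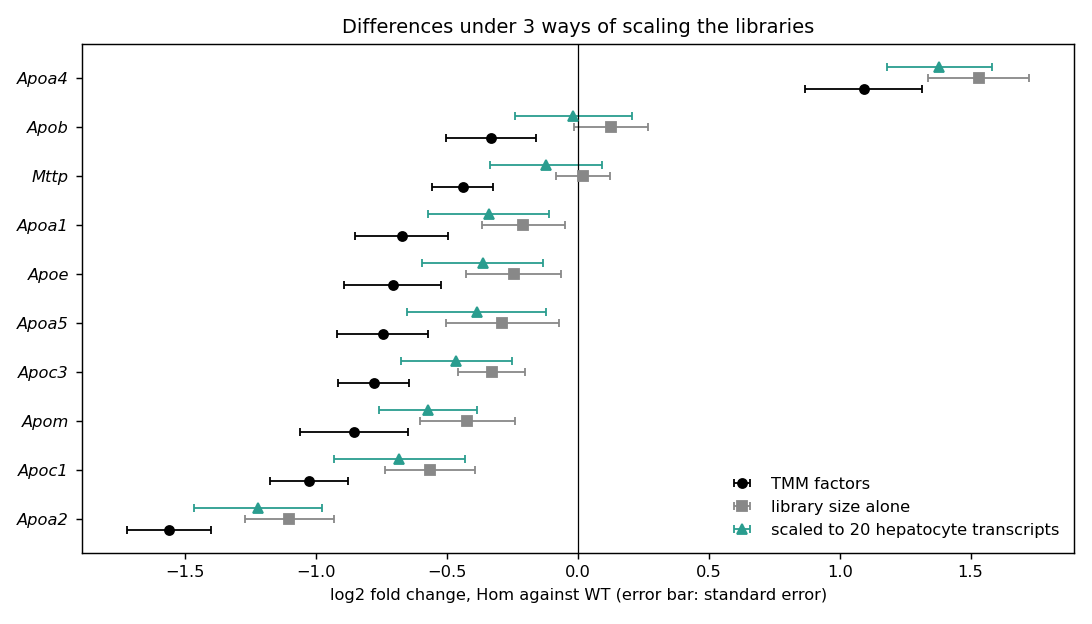
Log2 fold change of each gene, Hom over WT livers, with its standard error, under TMM factors (circles), library size alone (squares) and scaling to 20 hepatocyte transcripts (triangles). Apoa4 stays right of 0 and Apoa2 stays at −1.10 or lower under all 3, whereas Apob and Mttp lie near 0 under the latter 2.

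Ratios between genes of the same liver are free of that choice. Relative to Apoa1, Apoa2 was at log2 ratios of −0.43, −0.77 and −0.47 in WT and −1.58, −1.51 and −1.28 in Hom livers, a difference of −0.90. Apoa4 relative to Apoa1 moved from −6.48 ± 0.19 to −4.75 ± 0.44 (SD, n = 3), a difference of 1.73. Apob relative to Apoa1 was −0.92, −0.92 and −0.90 in WT livers and −0.44, −0.76 and −0.52 in Hom livers, a difference of 0.34. For these 3 genes and for Mttp (difference 0.23) the groups did not overlap, and the exact two-sided permutation test gave p = 0.1, the smallest it can give, so that none of the 9 ratios could reach 0.05. The share of all tested genes without overlap in their ratio to Apoa1 was not counted, and in CPM it was 55.6%. The ratios of Apoc1 (−0.37), Apom (−0.23), Apoc3 (−0.12), Apoa5 (−0.091) and Apoe (−0.046) to Apoa1 overlapped between the groups, with exact permutation p from 0.2 to 0.8.

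**Figure D3:**
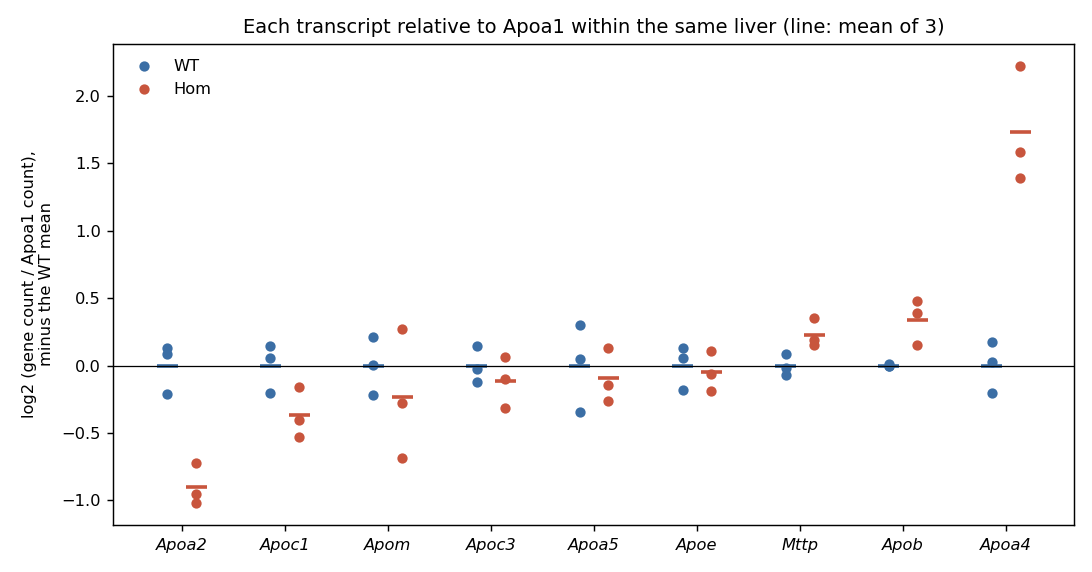
Log2 ratio of each gene's reads to Apoa1 reads within the same liver, set to 0 at the WT mean, for 3 WT and 3 Hom livers (points) and their means (lines). Apoa2 lies lower in all Hom livers (difference −0.90), Apoa4, Apob and Mttp lie higher (1.73, 0.34 and 0.23), and the other 5 genes overlap between groups. The share of all tested genes without overlap in this ratio was not counted.

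Set against Alb, the albumin transcript, whose own log2 fold change was −1.26 (adjusted p = 0.00991, edgeR), 9 of the 10 genes had a higher mean ratio in Hom livers. The differences in log2 ratio to Alb were 2.33 for Apoa4, 0.94 for Apob, 0.83 for Mttp, 0.60 for Apoa1, 0.48 for Apoc3 and 0.37 for Apom, with no overlap between groups. Those of Apoe (0.55), Apoa5 (0.51), Apoc1 (0.23) and Apoa2 (−0.30) overlapped. For the ratio to Alb, too, the share of all tested genes without overlap was not counted. Ttr, the transthyretin transcript, fell by 1.85 on the log2 scale (adjusted p = 4.86e-04), more than any of the 10 genes.

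Levels of different genes were compared per length, as deposited TPM, a share of all transcripts after division by length. In WT livers the order of mean TPM was Apoe (22352), Apoa2 (19107), Apoa1 (14066), Apoc1 (9560.3), Apoc3 (4121), Apoa5 (676), Apob (506), Apom (420.1), Mttp (118) and Apoa4 (92.5). Neighbours in that order overlapped between livers for Apoe and Apoa2 and for Apob and Apom. In Hom livers the order was Apoe (21132), Apoa1 (13666), Apoa2 (9988), Apoc1 (7241), Apoc3 (3682), Apoa5 (620.4), Apob (620.4), Apom (350.5), Apoa4 (299) and Mttp (134). Apoa2 thus passed from above Apoa1 to below it, with 8222 to 11095 TPM in Hom livers against 12290 to 15228 TPM for Apoa1. Apoa4 passed from below Mttp to above it, while Apoa5 and Apob, and Apom and Apoa4, overlapped in Hom livers. TPM values carry no TMM factor, and on that scale Apoa1, Apoa5, Apoc3, Apoe and Apom overlapped between WT and Hom livers. Apoa2 and Apoc1 were lower and Apoa4 was higher in every Hom liver than in any WT liver. Apob and Mttp had more TPM in every Hom liver than in any WT liver, at 610 to 636 against 463 to 540.04 TPM for Apob and at 129 to 142 against 114 to 121 TPM for Mttp, the reverse of their order after TMM scaling.

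**Figure D4:**
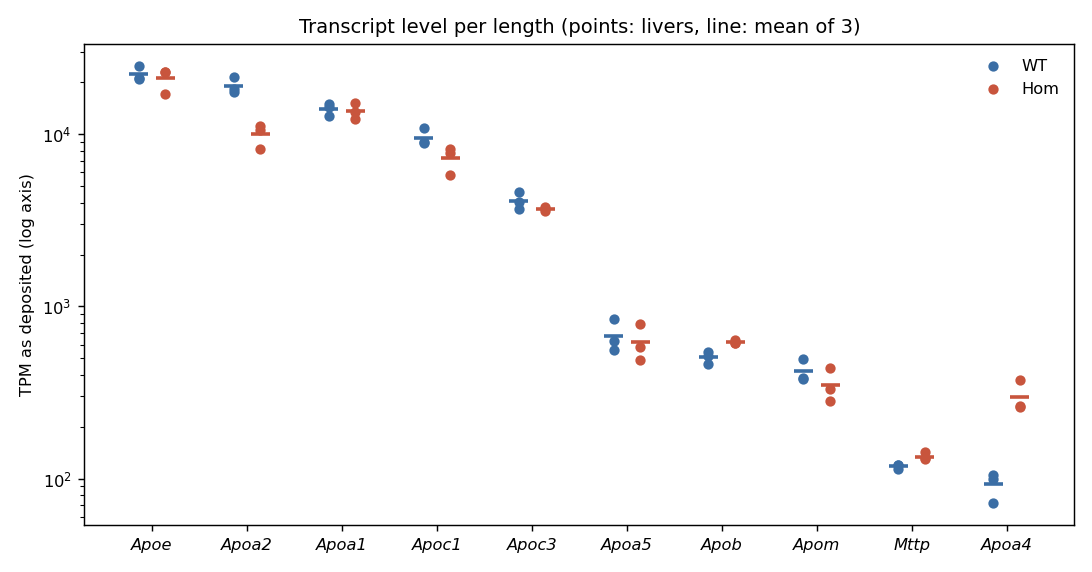
Deposited TPM of the 10 genes (log axis) in 3 WT and 3 Hom livers (points) with the mean of each group (line), ordered by the WT mean. Apoa2 drops from a mean of 19107 to 9988 TPM, Apoa4 climbs from 92.5 to 299 TPM, and Apoe stays first.

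Together the 10 genes made up 7.82%, 6.83% and 6.66% of all TPM in WT livers and 4.92%, 6.24% and 6.15% in Hom livers. Each Hom liver lay under each WT liver, with Hom replicate 1 the lowest. Within this pool the share of Apoa2 went from 26.9 ± 0.99% to 17.3 ± 0.69% (SD, n = 3) and that of Apoe from 31.5 ± 0.58% to 36.5 ± 1.47%. Apoa1 went from 19.9 ± 1.92% to 23.8 ± 1.62% of the pool, and Apob from 0.716 ± 0.068% to 1.09 ± 0.14%. The share of Apoa4 was 0.130 ± 0.019% in WT and 0.534 ± 0.19% in Hom livers.

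Genes that act with these 10 were grouped into 5 lists, 81 genes in all with 80 tested. Of 10 other secreted apolipoproteins, 3 were lower and 1 was higher, with a median of −0.24. Apoh, the phospholipid-binding beta-2-glycoprotein I, stood at −0.84 (SE 0.12, adjusted p = 0.00275, edgeR). Clu, which encodes clusterin or apolipoprotein J, rose from 1886, 2149 and 1942 CPM in WT to 6914, 4434 and 5932 CPM in Hom livers (log2 fold change 1.53, SE 0.21, adjusted p = 0.00204, edgeR). The acute-phase genes Saa1 and Saa2, named after their values were seen, did not pass the test (1.79, adjusted p = 0.244, and 3.16, adjusted p = 0.128, edgeR). Saa2 had 153, 10.3 and 9.59 CPM in WT and 1338, 103 and 106 CPM in Hom livers, so that replicate 1 was the highest liver of each group. Without Hom replicate 1 the log2 fold changes were 0.0091 for Saa1 and 0.85 for Saa2. Saa2 was called higher with the hepatocyte transcripts (adjusted p = 0.0316). Of these 10 other apolipoproteins, 2 were lower with library size alone (Apoc4 and Apoh) and 0 with the hepatocyte transcripts, and Clu was called higher in both.

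Of 19 partners in lipoprotein assembly and secretion, 9 were lower and 1 was higher (median −0.33). The lower genes included Dgat2, the last enzyme of triglyceride synthesis (−0.78, adjusted p = 0.00366), Sar1b, the GTPase of the coat that carries nascent particles out of the endoplasmic reticulum (−0.71, adjusted p = 0.0031), and P4hb, the subunit that pairs with MTTP (−0.46, adjusted p = 0.0388, edgeR). Apobec1, the enzyme that edits Apob messenger RNA, was higher, with 20.7, 15.5 and 20.2 CPM in WT and 24.1, 40.3 and 37.8 CPM in Hom livers (log2 fold change 0.86, SE 0.21, adjusted p = 0.0176, edgeR). A1cf, its RNA-binding partner, named after its values were seen, stood at −0.62 (adjusted p = 0.00386, edgeR). Tm6sf2, a factor in lipidation of the particle, did not pass the test (0.22, adjusted p = 0.515). With library size alone, 1 of the 19 was lower (Dgat2), and with the hepatocyte transcripts 0 were.

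Of 13 plasma lipases and remodelling factors, 7 were lower and 2 were higher (median −0.46). Angptl4, an inhibitor of lipoprotein lipase, fell from 224, 230.3 and 228 CPM in WT to 15.9, 21.6 and 34.7 CPM in Hom livers (log2 fold change −3.24, SE 0.28, adjusted p = 4.92e-04, edgeR). Lpl, the lipase that it inhibits, rose from 45.6, 37.1 and 38.3 CPM to 198, 190.3 and 221 CPM (log2 fold change 2.33, SE 0.12, adjusted p = 1.37e-04, edgeR). Both groups of livers were far apart for both genes, and both stayed called under library size alone and under the hepatocyte transcripts. Pon1, an esterase carried on high-density lipoprotein, fell by 1.70 on the log2 scale (adjusted p = 0.00158), and Pla2g7, the platelet-activating factor acetylhydrolase, rose by 1.71 (adjusted p = 0.00926, edgeR). Lipc, hepatic lipase, stood at −0.93 (adjusted p = 0.00657) and Lcat, which esterifies cholesterol on high-density lipoprotein, at −0.49 (adjusted p = 0.0229, edgeR). Neither of them passed with library size alone (−0.46, adjusted p = 0.0869, and −0.048, adjusted p = 0.782) or with the hepatocyte transcripts (adjusted p = 0.114 and 0.534). Over the 13 genes, 2 were lower and 3 higher with library size alone, and 3 were lower and 2 higher with the hepatocyte transcripts. Pltp, the phospholipid transfer protein, did not pass the test (−0.42, adjusted p = 0.368), and leaving out 1 liver gave −0.75 to −0.097.

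Of 14 receptor and efflux genes, 13 were tested, of which 1 was lower and 4 were higher (median 0.28). The higher genes included the fatty acid transporter Cd36 (1.32, adjusted p = 5.35e-04) and the cholesterol exporter Abcg1 (0.78, adjusted p = 0.0435, edgeR). The lower gene was Mylip, a ubiquitin ligase (−0.43, adjusted p = 0.0462, edgeR), whose value turned to 0.018 with library size alone. Over the 13 genes, 0 were lower and 8 higher with library size alone, where 6574 of all 13805 tested genes were higher. With the hepatocyte transcripts 0 were lower and 7 higher, and 3819 of all tested genes were higher. Lrp1 (−0.22, adjusted p = 0.287), Scarb1 (0.029, adjusted p = 0.873) and Abca1 (0.28, adjusted p = 0.0874) did not pass the test in the main setting.

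Of 25 transcription factors known to act on apolipoprotein genes or lipid synthesis, 12 were lower and 3 were higher (median −0.41). Hnf4a, the nuclear receptor whose core motif was searched above, had 784, 967 and 828 CPM in WT and 578, 505 and 516 CPM in Hom livers (log2 fold change −0.69, SE 0.13, adjusted p = 0.00745, edgeR). It lay at −0.23 with library size alone and at −0.37 with the hepatocyte transcripts, and passed the test in neither. Ppara, the fatty-acid-sensing receptor (−1.30, adjusted p = 0.00159), and Nr0b2, the corepressor SHP (−1.35, adjusted p = 0.00101, edgeR), fell the most and passed in both of these settings. Creb3l3, an endoplasmic reticulum factor for apolipoprotein genes that include Apoa4, stood at −0.84 (adjusted p = 0.00179), and Foxo1, an insulin-regulated factor for Mttp and Apoc3, at −0.86 (adjusted p = 0.00983, edgeR). Creb3l3 passed with library size alone but not with the hepatocyte transcripts (−0.53, adjusted p = 0.0807, edgeR). Foxo1 passed with the hepatocyte transcripts but not with library size alone (−0.41, adjusted p = 0.0824, edgeR). Over the 25 genes, 4 were lower and 4 higher with library size alone, and 3 were lower and 4 higher with the hepatocyte transcripts. Srebf1 (0.68, adjusted p = 0.0276) and Nr2f2 (0.50, adjusted p = 0.0121, edgeR) were higher.

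**Figure D5:**
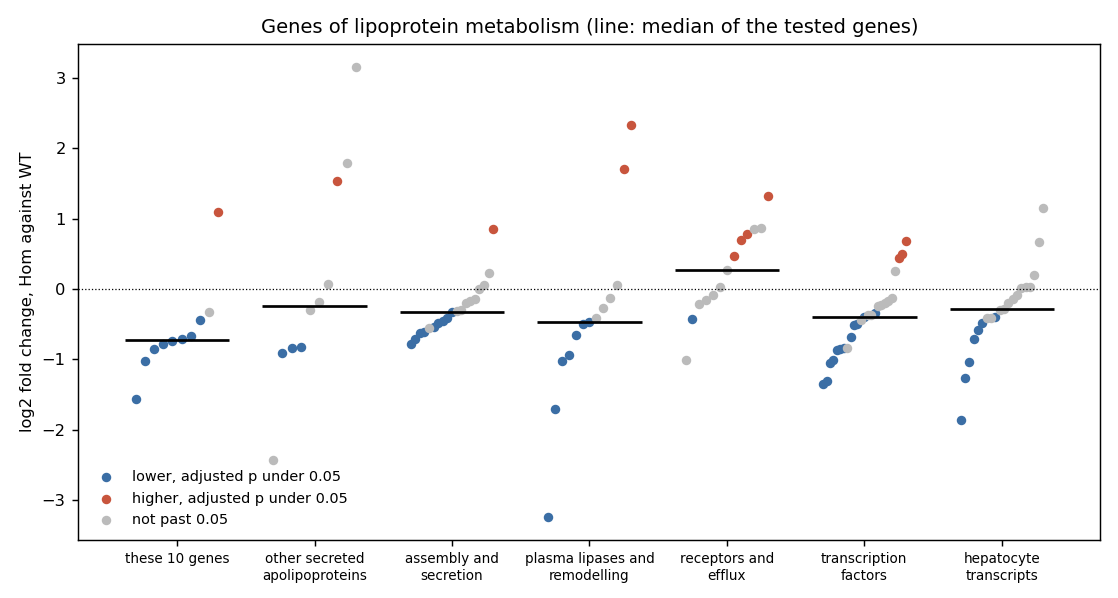
Log2 fold change of each tested gene, Hom over WT livers, in the 10 genes, the 5 lists around them and 20 transcripts of hepatocytes (blue, called lower, red, called higher, grey, not past 0.05, line, median). The medians are −0.73 for the 10 genes, −0.24, −0.33, −0.46, 0.28 and −0.41 for the 5 lists, and −0.29 for the hepatocyte transcripts.

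Markers of liver cell types moved between the groups as well. Of 20 hepatocyte transcripts 7 were lower and 0 higher (median −0.29), and their summed TPM was 131756 to 195179 in WT and 147040.0 to 188383 in Hom livers. Under library size alone 3 of the 20 were lower and 2 higher. Cholangiocyte markers rose in 10 of 12 cases, from a summed 61.1 to 104 TPM in WT to 957 to 1448 TPM in Hom livers. Most of that Hom sum came from Spp1 alone, at 29.0 to 68.3 TPM in WT and 773 to 1208 TPM in Hom livers. Macrophage markers summed to 386 to 1077 TPM in WT and 1228 to 1926 TPM in Hom livers, with 5 of 16 higher and 2 lower. Stellate cell markers went from 172 to 259 TPM to 435 to 519 TPM, with 5 of 10 higher and 1 lower, and endothelial markers from 95.1 to 169.7 TPM to 96.9 to 116 TPM, with 4 of 10 lower and 1 higher. Counts higher and lower with library size alone were 10 and 1 for macrophage markers and 8 and 1 for stellate markers. For endothelial markers they were 3 and 2, and for cholangiocyte markers 10 and 0. In none of these lists was a marker at 0 in every liver. The part of these shifts in the values of the 10 genes was not tested, and in whole liver fewer hepatocytes and less RNA per hepatocyte cannot be told apart. Apoe, Lpl and Clu are also transcribed by cells other than hepatocytes, macrophages among them.

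Apoa4 and Mttp are genes of the intestine as well as of the liver. Of 10 enterocyte markers, 7 were in the table and 4 were tested. Their summed TPM was 106 to 114 in WT and 104 to 123 in Hom livers, nearly all of it from Anpep and Fabp2, which hepatocytes also express. Of the 4 tested markers 2 were lower and 2 were higher. Fabp2 (log2 fold change −1.83, adjusted p = 0.00481) and Anpep (−0.35, adjusted p = 0.0223) were lower by edgeR's test. The Anpep call was lost with library size alone (0.10), the hepatocyte transcripts (−0.035) and the replicate number as a block (−0.35). The glucose transporter Slc5a1 (2.93, adjusted p = 4.82e-04) and the microvillus protein gene Vil1 (2.44, adjusted p = 0.00916, edgeR) were higher. Slc5a1 had 0.51 to 1.24 TPM in WT and 8.70 to 10.2 TPM in Hom livers, and Vil1 at most 0.36 and 2.02 TPM. Which cells of the liver gave the Slc5a1 and Vil1 reads was not tested, and neither was any link to the Apoa4 value. The mean TPM of Cdx2, an intestinal transcription factor chosen after its values were seen, was 0 in WT and 0.017 in Hom livers. Adipocyte markers, counted because of Lpl, summed to at most 5.58 TPM in WT and 4.21 TPM in Hom livers, and the 1 of 6 tested was not called.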

How the data were processed

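Total RNA came from snap-frozen liver (Trizol), and BGI Genomics sequenced it by DNBSEQ. The submitters' processing notes name HISAT2 2.0.4, Bowtie2 2.2.5, RSEM 1.2.12 and mm9. The annotation and strandedness are not given in the sources used here. The authors deposited estimated counts (expected counts, not scaled between livers), FPKM and TPM for 17975 genes. Deposited group means carry crossed names and were not used.

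The tests ran on rounded estimated counts with edgeR 4.0.16 in R 4.3.3, using filterByExpr, TMM factors and the quasi-likelihood test with Benjamini-Hochberg adjustment over 13805 genes, with no minimum fold change. Standard errors come from the fold change and F statistic. Deposited TPM served for levels and shares, and FPKM for a check of the shares. Ratios used log2(count + 1). The fit was checked on simulated data. Every pair of livers of a group was further apart than sampling allows (lowest chi-square 22.1 per degree of freedom), so all 6 entered as separate. Depth of about equal size in all livers limits mainly genes with few reads. Positions are from GENCODE M21 (GRCm38), not the build of the notes.

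The 10 genes and the 13 other lists were chosen with earlier results of these data known. Besides the 10 genes, named genes were a fixed set (such as Hnf4a and Lipc, a few of which are not reported here) and, per list, up to 2 largest increases and decreases among called genes with at least 1 CPM. Ratios to genes other than Apoa1 were added after seeing the data. Alternatives were other scalings, filters, DESeq2 1.42.0, a replicate block, a minimum fold and each liver left out.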

Additional observations from a re-analysis of the deposited data

How the results depend on the processing

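With library size alone, scaling to 20 hepatocyte transcripts, the replicate number as a block, or a log2 fold change of at least 1 in size, 2, 2, 5 and 2 of the 10 genes were lower, and leaving out 1 liver gave 3 to 8 (7 without WT replicate 1, 5 without WT replicate 2, WT replicate 3 or Hom replicate 2, 3 without Hom replicate 3, 8 without Hom replicate 1). Apoa4 was higher in all of these. WT and Hom livers share replicate numbers but are different mice, and the deviations of same-numbered livers had correlations of −0.11, −0.056 and −0.049, so the block (without the calls of Apoa1, Apoe and Mttp) was not taken as pairing. With the block Saa1 and Saa2 were called higher (adjusted p = 0.00624 and 0.00101, edgeR). Genes called higher were 51.7% of all called genes with TMM, 62.8% with upper-quartile factors, 87.5% with the hepatocyte transcripts and 91.1% with library size alone.

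Over the 5 lists, 32 genes were lower and 11 higher. With library size alone 9 were lower and 18 higher, with the hepatocyte transcripts 6 were lower, at a log2 fold change of at least 1 in size 7 were lower and 4 higher, and leaving out a liver gave 21 to 32 lower (21 without Hom replicate 2 or 3) and 8 to 13 higher. These alternatives for genes outside the 10 were chosen after seeing the data. Of the 80 tested genes of these lists, 27 turned sign with library size alone (6 of them called with TMM) and 17 with the hepatocyte transcripts (1 called with TMM). Among named genes and the 10, library size alone turned Apob (0.13), Mttp (0.019), Pltp (0.037), Lrp1 (0.23), Mylip (0.018) and Anpep (0.10), and the hepatocyte transcripts turned Lrp1 (0.088). Leaving out a liver gave −0.18 to 0.29 for Apoc2 (below 0 without WT replicate 3 or Hom replicate 1), −0.11 to 0.39 for Tm6sf2 (Hom replicate 1) and −0.086 to 0.098 for Scarb1 (WT replicate 3 or Hom replicate 3). None of the turned values printed here passed the test. The difference in ratio to Apoa1 ran from −0.26 to 0.060 for Apoa5 (above 0 without WT replicate 1) and from −0.14 to 0.024 for Apoe (WT replicate 1 or Hom replicate 1). For Apom it ran from −0.48 to −0.0032 and for Apoc3 from −0.21 to −0.017. The cause was not tested. Shares from FPKM were those from TPM.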
